A study of Homo sapiens with 52 samples.

Results

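The lysosomal genes followed here are 39 genes that encode enzymes, membrane proteins, proton pump parts and transcription factors of the lysosome. They were chosen by gene symbol out of 59408 genes in the deposited tables. The rule holds no measured value, but the choice was made with earlier results of these data known. Of the 39, 37 passed a filter on low values and were tested among 15627 genes. NEU1, a sialidase, and CTSO, a cysteine protease, did not pass, with at most 4 and 3 reads in any library. How reads that match several places were counted is not given in the sources used here. Such low values therefore do not show that the cells lack these 2 transcripts. The cells are WI-38, a line of normal human lung fibroblasts that stops dividing after a limited number of passages. Young cultures were left untreated or were exposed for 24 h to 0.009% SDS, which is a detergent and perforates the cell surface, to 75 mM KCl, which depolarizes cells and lets calcium in, or to 250 nM doxorubicin (DXR), which breaks DNA. Exposed cells were collected at the wash, called day 0, and on 7 later days from day 1 to day 16. They are called PMD-Sen cells after SDS, Ca2+-Sen cells after KCl and DDR-Sen cells after DXR. Replicatively senescent cells (RS), at a population doubling level of about 52, were not exposed. All groups are the same line, carry no transgene, and have 2 libraries each, which gives 52 libraries in 26 groups.

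Lysosomes break down proteins, glycans, lipids and nucleic acids in an acid lumen. The hydrolases are made in the endoplasmic reticulum and most are sorted to the lysosome by a mannose 6-phosphate tag, the V-ATPase pumps in protons, and membrane proteins such as LAMP1 and LAMP2 line the organelle. Senescent fibroblasts are known for an enlarged lysosomal compartment, and the stain used to find them reads the activity of the β-galactosidase encoded by GLB1. The transcription factors TFEB and TFE3 bind an E-box, CACGTG, in the promoters of many lysosomal genes, and their activity is known to be set largely by phosphorylation and by movement into the nucleus, which mRNA levels do not show. Lysosomes also fuse with a torn plasma membrane when calcium enters, which is one way a cell reseals a wound.

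The promoter sequences of 29 of the 39 members could be read from RefSeq (build GRCh38.p14), over 250 bases before to 50 bases after each start. The letters CACGTG, which read the same on both strands, stood in 9 of these 29 promoters (31.0%) and in 2396 of the 27305 genes of the table (8.77%). The longer palindrome TCACGTGA, which contains it, stood in 17.2% of the members and 1.18% of all genes. Of 97 other lysosomal genes with a promoter, 24 held CACGTG (24.7%). A match is a description of letters and not a binding site. The stretches before the start are given on the gene's own strand for 7 members whose values are described in the sections that follow, with CACGTG in capitals, at chr17:80101481-80101580 (plus strand) for GAA, chr19:7522524-7522623 (plus) for MCOLN1, chr20:45891235-45891334 (plus) for CTSA, chr11:66568607-66568746 (minus) for CTSF, chr11:1763928-1764027 (minus) for CTSD, chr13:113297029-113297238 (plus) for LAMP1 and chr16:88856948-88857047 (minus) for GALNS.
GAA: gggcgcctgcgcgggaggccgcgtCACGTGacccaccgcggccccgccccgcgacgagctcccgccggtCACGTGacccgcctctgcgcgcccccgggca
MCOLN1: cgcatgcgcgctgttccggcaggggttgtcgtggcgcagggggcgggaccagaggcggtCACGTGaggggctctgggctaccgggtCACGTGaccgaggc
CTSA: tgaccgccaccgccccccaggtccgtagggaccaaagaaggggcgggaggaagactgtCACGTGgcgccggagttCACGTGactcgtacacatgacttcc
CTSF: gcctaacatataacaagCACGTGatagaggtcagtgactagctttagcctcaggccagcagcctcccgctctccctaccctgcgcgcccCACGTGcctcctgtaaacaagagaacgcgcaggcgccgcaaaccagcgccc
CTSD: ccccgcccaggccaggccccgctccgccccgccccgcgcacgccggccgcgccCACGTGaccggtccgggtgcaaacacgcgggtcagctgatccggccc
LAMP1: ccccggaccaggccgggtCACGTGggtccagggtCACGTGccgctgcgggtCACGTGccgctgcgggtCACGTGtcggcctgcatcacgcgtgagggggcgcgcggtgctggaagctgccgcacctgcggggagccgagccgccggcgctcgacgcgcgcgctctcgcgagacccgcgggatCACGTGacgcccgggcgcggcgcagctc
GALNS: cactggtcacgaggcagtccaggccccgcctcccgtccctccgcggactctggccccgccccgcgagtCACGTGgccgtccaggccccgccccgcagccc
The stretch of LAMP1 holds 5 copies, those of GAA, MCOLN1, CTSA and CTSF hold 2 each, and those of CTSD and GALNS hold 1. The other members with the letters were NEU1 and CD63, and LAMP1 and GALNS each have 1 more copy outside the stretches shown.

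The tables give no value of a single library. Each lists, for 1 treated group and the untreated group, the mean over their 4 libraries of read counts divided by a size factor, and the whole read counts behind those means were recovered for each library. Libraries of a group are named a (the larger) and b, and cannot be tied to the replicate numbers of the labels. Counted reads numbered 18598511 and 15032808 in untreated libraries a and b, the smallest of all, and 19.1 M to 54.8 M in the others. Both libraries of a group were separated for 98.89% of the tested genes and groups. In the 15 tables written with 10 digits, several pairs of counts could fit 1 mean. A pair was then taken if it alone had libraries within 2-fold of each other. Such pairs are among those called separated and were not counted apart. This choice favors libraries that agree, and its effect on the SE and p was not tested. Among the members, 21 were separated in every group and 14 in every group but day 1 of DXR, while PSAP, CD63, LAMP1 and CTSC were not in further groups. Where they were not separated, the level of the group stands for both libraries and the fit lost 1 degree of freedom. Normalized counts are read counts divided by a size factor and not by gene length, so levels are not compared between genes. Differences are log2(normalized count + 0.5) of 1 group minus another from 1 limma fit over all 26 groups. Each is given with the standard error (SE) of the fit. It is called higher or lower at a Benjamini-Hochberg adjusted p under 0.05 over all tested genes. The fit estimates 1 spread per gene that all groups share, so the SE and p are not those of the 2 groups alone. Fibroblast genes were high in every library (COL1A2 at 83396 or more), while KRT5, KRT14, SFTPC, CDH5 and MARCO, of the lists for epithelial cells, endothelium and macrophages, stayed at or under 3.5. Other genes of these lists were present. KRT19, an epithelial keratin, was at 264 to 2976 throughout, with the lowest sums of the 6 epithelial markers, 294 and 371, on day 0 of KCl. The 4 endothelial markers summed to 44.5 and 56.5 in untreated cells and to 199 and 264 on day 0 of KCl, where PECAM1 was at 121 and 163 against 0.0 and 6.1, while VWF was read in every library, at 135 or less. The part of these markers in the results of day 0 of KCl was not tested. The leukocyte markers summed to between 19.5 and 435 per library, highest in RS library b, where CD14 reached 418, and their part in the results of RS was not tested. The proliferation marker MKI67 fell on day 0 of SDS, KCl and DXR, on day 16 of SDS and DXR and in RS, and was at −1.09 ± 0.47 on day 16 of KCl (adjusted p = 0.11).

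RS and the late days of all 3 inducers had more members above than below the untreated level. In RS, 25 of the 37 members were higher than in untreated cells and 3 lower, where 23.3% of all tested genes were higher and 24.0% lower. PMD-Sen cells on day 16 had 25 higher and 1 lower (20.9% and 22.9% of all genes), DDR-Sen cells on day 16 had 23 and 2 (22.1% and 24.8%), and Ca2+-Sen cells on day 16 had 14 and 1 (8.43% and 8.06%). The median log2 difference of the members was 0.44 in RS and 0.50, 0.53 and 0.21 on day 16 of SDS, DXR and KCl, with the median of all tested genes between −0.01 and 0.00. The 13 members called higher on day 16 of all 3 inducers and in RS were GLB1, IDUA, FUCA1, CTSD, LGMN, TPP1, ASAH1, SMPD1, PSAP, NPC2, LAMP1, MCOLN1 and ATP6AP1. The share of all tested genes with these 4 calls together was not counted. In some fit without 1 library, FUCA1, LAMP1, PSAP and SMPD1 lost the call of KCl and ATP6AP1 that of SDS. MCOLN1 lost both, and TPP1 lost those of KCl, DXR and RS. All these comparisons use the same untreated libraries, so they are not independent of each other. In bulk libraries, a change in the RNA of every cell and a change in the share of cells in one state cannot be told apart. When each of the 4 libraries of a comparison was left out in turn, 18 of the 25 higher calls in RS were kept in all 4 fits, and 19 of 25, 21 of 23 and 7 of 14 on day 16 of SDS, DXR and KCl.

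**Figure D1:**
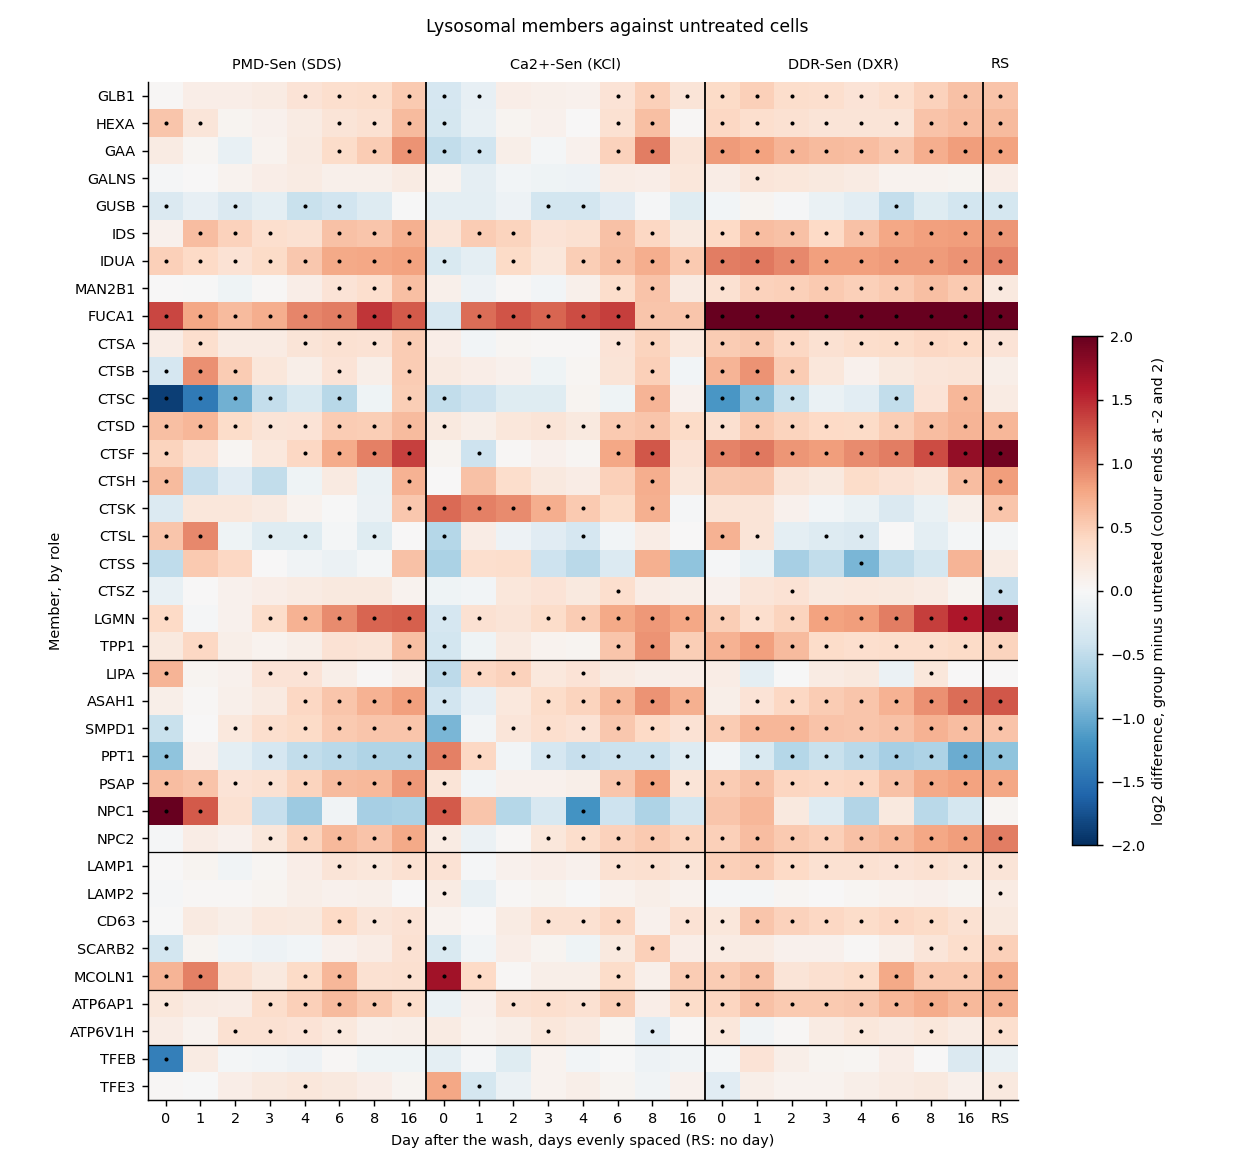
Log2 difference of each tested member (rows, ordered by role) from untreated cells on each day of SDS, KCl and DXR and in RS (columns). Red is higher and blue lower, the color ends at −2 and 2, and a dot marks an adjusted p under 0.05. The DXR columns and RS are red for most rows, while the day 0 column of KCl is blue for 12 called members.

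The timing differed between the inducers. With DXR the members were up from the start, with 23 higher and 2 lower on day 0 (18.8% and 21.6% of all genes) and a median of 0.40, and 19 to 23 were higher on every later day. On days 1, 2, 3, 4, 6 and 8 of DXR the higher members numbered 23, 21, 19, 21, 20 and 23, against 14.9%, 9.97%, 11.1%, 12.4%, 18.0% and 19.0% of all genes. The lower ones numbered 2, 2, 2, 3, 3 and 1 on these days, against 15.0%, 9.73%, 10.5%, 12.6%, 18.4% and 18.1%. With SDS, 13 members were higher and 7 lower on day 0 (26.4% and 29.3% of all genes), a share of 35.1% and 18.9%, and the median was 0.08. On days 1, 2, 3, 4, 6 and 8 of SDS 12, 8, 11, 16, 21 and 18 members were higher, against 16.3%, 12.2%, 11.5%, 12.5%, 16.0% and 13.2% of all genes, and 1, 2, 3, 3, 3 and 2 were lower, against 14.5%, 7.99%, 9.94%, 11.9%, 15.1% and 13.2%. With KCl, 10 were higher and 12 lower on day 0, close to the 27.1% and 32.1% of all genes, and the median was −0.00. Over days 1, 2, 3, 4, 6 and 8 of KCl 7, 7, 10, 11, 22 and 22 were higher, against 7.49%, 2.89%, 8.05%, 9.43%, 13.2% and 20.6% of all genes, and 4, 0, 2, 4, 1 and 2 were lower, against 9.39%, 2.59%, 7.46%, 11.0%, 13.7% and 22.4%. Of the 12 members lower on day 0 of KCl, 10 were higher on day 8: GLB1, HEXA, GAA, IDUA, CTSC, LGMN, TPP1, ASAH1, SMPD1 and SCARB2. The share of all tested genes with the same turn was not counted. The day 0 calls of IDUA, CTSC and TPP1 were lost without untreated library a (−0.17, −0.42 and −0.16). That of LGMN was lost without untreated library b (−0.14). Calls kept in all 4 fits without 1 library on day 0 were 9 of 13 higher and 5 of 7 lower with SDS, 6 of 10 and 8 of 12 with KCl, and 19 of 23 and 1 of 2 with DXR.

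**Figure D2:**
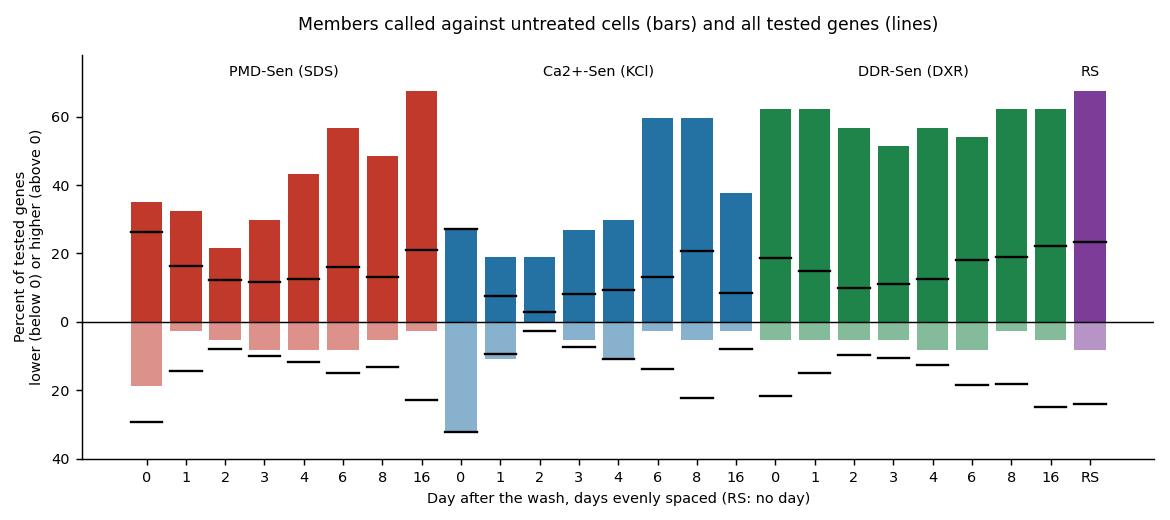
Share of the 37 tested members called higher (bars above 0) and lower (bars below 0) than untreated cells, in percent, for each day of each inducer and RS, with a black line at the share of all 15627 tested genes. Above 0, the DXR bars stay over 50% from day 0 and the SDS bars are highest on day 16, at 67.6%. Those of KCl reach 59.5% on days 6 and 8 and are at 37.8% on day 16. The day 0 bars of KCl end at the lines.

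Across the 25 comparisons with untreated cells, 15 members were called higher at least once and never lower, 3 lower and never higher, and 19 in both directions. No member was without a call or called higher in all 25. The same counts were not made over all tested genes, so they show nothing particular to the members. In single comparisons 2.89% to 27.1% of all tested genes were higher and 2.59% to 32.1% lower. FUCA1 was called higher in 24 comparisons, CTSD in 23 and IDUA in 22. The 3 called only lower were GUSB, CTSS and TFEB.

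Among the glycosidases and sulfatases, which take sugars and sulfate groups off glycans, 7 of 9 tested members were higher in RS, on day 16 of SDS and DXR, on day 0 of DXR and on day 8 of KCl. On these days 18.8% to 23.3% of all genes were higher. On day 0 of KCl 0 of the 9 were higher and 4 lower, where 27.1% and 32.1% of all genes were. GLB1, at chr3:32961108-33097146, encodes the lysosomal β-galactosidase. Its normalized count was 2761 and 2606 in the untreated libraries a and b, 3854 and 4123 in RS, 3752 and 3917 on day 16 of SDS, 3877 and 4134 on day 16 of DXR and 3234 and 3196 on day 16 of KCl. All 8 late libraries lay above both untreated ones. The log2 differences were 0.57 ± 0.06 in RS (adjusted p = 1.5e-09), 0.52 ± 0.06 for SDS (2.3e-08), 0.58 ± 0.06 for DXR (1.4e-09) and 0.26 ± 0.06 for KCl (0.0023), or 1.49-fold higher in RS. On day 0 the 3 inducers were apart, with 2724 and 2758 after SDS, 2100 and 2175 after KCl and 3490 and 3482 after DXR. The KCl libraries lay below and the DXR libraries above both untreated ones (−0.33 ± 0.06, adjusted p = 1.5e-05, and 0.38 ± 0.06, adjusted p = 3.8e-06), while the SDS libraries overlapped them (0.03 ± 0.06, adjusted p = 0.68). GLB1 was called higher on all 8 days of DXR, on 4 of 8 days of SDS and on 3 of 8 days of KCl.

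FUCA1, the α-fucosidase at chr1:23845077-23868290, had the widest range of group means of any tested member, 4.33 on the log2 scale. It was low in untreated cells, with 37.9 and 52.5 normalized counts, and reached 630 and 821 on day 0 of DXR, then fell to 232 and 281 on day 16. That is 4.00 ± 0.19 above untreated cells on day 0 (adjusted p = 2.3e-16) and 2.5 ± 0.19 on day 16 (3.9e-12). RS was at 268 and 231, close to day 16 of DXR, with a difference from untreated of 2.47 ± 0.19 (3.6e-12). SDS gave 114 and 114 on day 0 and 114 and 96.9 on day 16, above both untreated libraries but below every DXR and RS library. After KCl, day 0 was at 34.1 and 37.2, not called against untreated cells (−0.32 ± 0.19, adjusted p = 0.15), and −0.55 with an adjusted p of 0.038 without untreated library a. Day 16 of KCl, at 62.0 and 69.4, was called at 0.55 (adjusted p = 0.042), but not without untreated library a (0.32, adjusted p = 0.39) or without KCl library a or b (0.63 and 0.47, adjusted p = 0.093 and 0.23).

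GAA, which breaks down glycogen and is mutated in Pompe disease, stood at 2422 and 2028 in untreated cells. It fell to 1468 and 1707 on day 0 of KCl (−0.49 ± 0.11, adjusted p = 0.00033) and rose to 4533 and 4502 on day 8 of KCl (1.03 ± 0.11, 1.2e-08). On day 16 of KCl it was back at 2655 and 2641 (0.26 ± 0.11, adjusted p = 0.11). After DXR it was at 3664 and 4328 on day 0 and 3856 and 4031 on day 16, at 0.85 ± 0.11 and 0.83 ± 0.11, and RS gave 3812 and 3936. Its promoter holds CACGTG in 2 places, both as TCACGTGA. GALNS, a sulfatase whose promoter also holds CACGTG, was called in 1 of 25 comparisons, at 1584 and 1272 in untreated cells, 1514 and 1637 on day 0 of DXR and 1503 and 1628 in RS. Every one of these treated libraries lay between the untreated ones or just above library a. Without untreated library a, GALNS was called in RS (0.30, adjusted p = 0.012), on day 0 of DXR (0.31, 0.011) and KCl (0.23, 0.043) and on day 16 of SDS (0.33, 0.0067) and KCl (0.37, 0.01). GUSB, the β-glucuronidase, was the one member of this role called only lower, in 9 of 25 comparisons. It stood at 827 and 719 in untreated cells and at 622 and 587 in RS (−0.35 ± 0.10, adjusted p = 0.0039), and the call was lost without untreated library a (−0.25, adjusted p = 0.095). Its pseudogene copies, the copy of IDS and the gene that overlaps IDUA on the other strand may share reads with them, and how such reads were counted is not given in the sources used here. Of the rest, IDUA and IDS, which degrade glycosaminoglycans, and HEXA and MAN2B1, which trim glycolipids and mannose chains, were called higher on all 8 days of DXR. Their largest rises there were between 0.60 and 1.06. The rise of IDS on day 0 of DXR (0.40, adjusted p = 0.0084) was lost without untreated library b (0.27, adjusted p = 0.15) or DXR library a (0.28, adjusted p = 0.14).

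**Figure D3:**
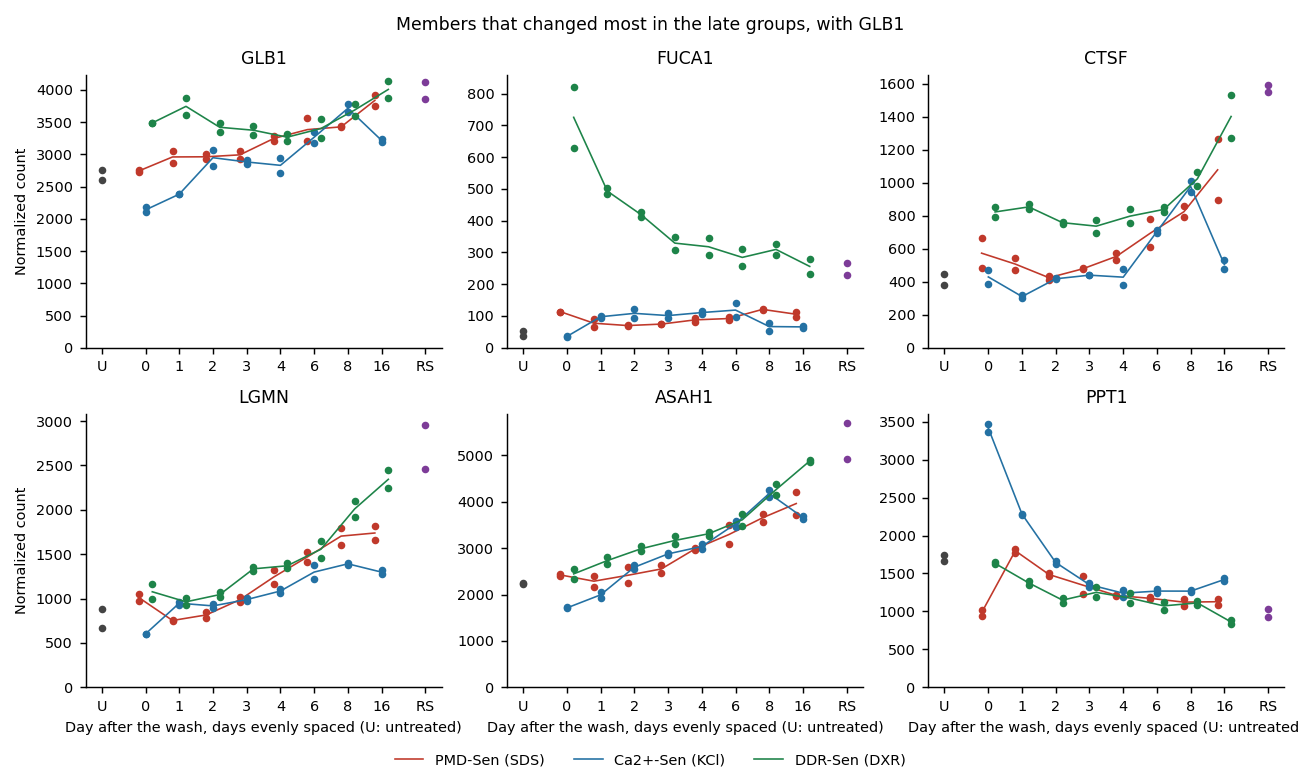
Normalized count of GLB1, FUCA1, CTSF, LGMN, ASAH1 and PPT1 in untreated cells (U), on each day of SDS, KCl and DXR, and in RS. Circles are single libraries, lines join group means, and days are evenly spaced on the axis. CTSF, LGMN and ASAH1 climb towards day 16 of SDS and DXR, FUCA1 is highest on day 0 of DXR, and PPT1 is highest on day 0 of KCl and below the untreated libraries late.

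The cathepsins and other peptidases split into members that climbed over 16 days and members that moved early. CTSF, a cysteine cathepsin at chr11:66563464-66568606, gave 380 and 448 normalized counts in untreated cells, 895 and 1262 on day 16 of SDS, 1271 and 1532 on day 16 of DXR and 1591 and 1552 in RS. None of these 6 libraries overlapped the untreated ones, and the differences were 1.36 ± 0.14, 1.76 ± 0.14 and 1.93 ± 0.14 (adjusted p = 4.1e-09, 1.2e-11 and 1.2e-12). With KCl, CTSF reached 945 and 1011 on day 8 (1.24 ± 0.14, adjusted p = 2.8e-08) and was at 530 and 478 on day 16 (0.29 ± 0.14, adjusted p = 0.17). LGMN, the asparaginyl endopeptidase legumain at chr14:92703809-92748627, followed the same order. It went from 664 and 878 in untreated cells to 1318 and 1277 on day 16 of KCl, 1821 and 1656 on day 16 of SDS, 2243 and 2443 on day 16 of DXR and 2458 and 2960 in RS, with no overlap with the untreated libraries. The differences were 0.77 ± 0.10, 1.19 ± 0.10, 1.62 ± 0.10 and 1.82 ± 0.10 (adjusted p = 4.5e-06, 1.4e-10, 9.5e-14 and 4.8e-15). On day 0, LGMN was 971 and 1051 after SDS and 601 and 603 after KCl, called at 0.40 and −0.34. Neither call was kept without 1 untreated library, at 0.20 without library a (adjusted p = 0.13) and −0.14 without library b (adjusted p = 0.29).

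CTSC, which activates serine proteases of immune cells, and CTSL, a broad cysteine protease, moved in opposite directions on day 0 of SDS and DXR. CTSC, at chr11:88293592-88337736, dropped from 14175 and 12658 in untreated cells to 3465 and 3825 on day 0 of SDS (−1.88 ± 0.16, adjusted p = 2.6e-11) and to 6058 and 5813 on day 0 of DXR (−1.17 ± 0.16, 5.6e-07). By day 16 of DXR it was at 19488 and 23299, above both untreated libraries (0.67 ± 0.16, 0.00085), and on day 16 of SDS at 16949 and 20745. The SDS value on day 16 was called at 0.49 (adjusted p = 0.013) but not without SDS library b (0.34, adjusted p = 0.18) or without untreated library b (0.40, adjusted p = 0.11). Against their own day 0, SDS and DXR cells had gained 2.36 ± 0.16 and 1.84 ± 0.16 by day 16 (adjusted p = 1.1e-13 and 1.6e-10). The RS libraries were at 10994 and 20243 and overlapped the untreated ones (0.16 ± 0.16, adjusted p = 0.44), and CTSC was called at 0.60 without RS library a (adjusted p = 0.00055). CTSL gave 5093 and 5381 in untreated cells, 8210 and 7252 on day 0 of SDS, 7993 and 8943 on day 0 of DXR and 3340 and 3722 on day 0 of KCl. Both SDS and DXR libraries lay above and both KCl libraries below the untreated ones, at 0.56 ± 0.08, 0.69 ± 0.08 and −0.57 ± 0.08 (adjusted p = 2.8e-07, 1.3e-08 and 1.9e-07). After SDS it peaked on day 1, at 10036 and 10296, and by day 16 all 3 inducers and RS were within 0.04 of the untreated level. CTSB, a second broad protease, was higher on day 1 of SDS (0.92 ± 0.11, adjusted p = 1.4e-07). On day 0 of SDS it was called lower (−0.34, adjusted p = 0.0073), but not without untreated library a (−0.31, adjusted p = 0.054) or SDS library b (−0.29, adjusted p = 0.065).

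CTSK, the cathepsin that cleaves collagen, moved mainly with KCl. It was at 1927 and 1954 in untreated cells and at 4153 and 4399 on day 0 of KCl (1.14 ± 0.19, adjusted p = 6.0e-06), then declined through 3823 and 3997 on day 1 to 1966 and 1875 on day 16 (−0.02 ± 0.19, adjusted p = 0.97). It was called higher on 6 of 8 days of KCl, on 1 of SDS and on none of DXR. The RS libraries differed from each other, at 4225 and 1921, and the call in RS (0.55 ± 0.19, adjusted p = 0.017) turned to −0.01 without RS library a (adjusted p = 0.95) and was lost without either untreated library (adjusted p = 0.07 and 0.059). CTSZ, a carboxypeptidase, was called lower in RS, at 4963 and 3114 against 5593 and 5209 (−0.46 ± 0.10, adjusted p = 0.0005), but not without RS library b (−0.12, adjusted p = 0.17). CTSA, a carboxypeptidase that also shields GLB1 and NEU1 in a complex, rose from 5472 and 5171 to 7098 and 8090 on day 0 of DXR (0.51 ± 0.07, 1.5e-06) and to 7077 and 8048 on day 16 of SDS (0.50 ± 0.07, 1.9e-06). CTSH, an aminopeptidase at 60.9 and 52.5 in untreated cells, was called at 0.83 in RS (adjusted p = 0.0079), with 112 and 90.6, but not without RS library a (0.67, adjusted p = 0.081) or untreated library b (0.72, adjusted p = 0.067). CTSD, the main aspartic protease, was higher in 23 of 25 comparisons by 0.68 at most, and its largest value was on day 16 of DXR (adjusted p = 3.4e-09). TPP1, a tripeptidyl peptidase, was called higher on all 8 days of DXR, by 0.34 to 0.82. On day 16 of DXR its call (0.38) was lost without untreated library b (0.18, adjusted p = 0.28) or DXR library a (0.27, adjusted p = 0.12). CTSS, the cathepsin of antigen presentation, had a mean of 63.8 in untreated cells and was called in 1 of 25 comparisons, lower on day 4 of DXR.

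Among the lipid hydrolases, their activators and the cholesterol exporters, ASAH1, the acid ceramidase, was higher late with every inducer and in RS. It was at 2256 and 2230 in untreated cells, 3631 and 3688 on day 16 of KCl, 4202 and 3719 on day 16 of SDS, 4909 and 4845 on day 16 of DXR and 5688 and 4931 in RS. Every late library lay above the untreated ones, at 0.71 ± 0.07, 0.82 ± 0.07, 1.12 ± 0.07 and 1.24 ± 0.07 (adjusted p = 1.0e-07, 2.2e-10, 1.4e-13 and 1.1e-14). On day 0 of KCl it was lower, at 1700 and 1723 (−0.39 ± 0.07, adjusted p = 2.5e-05). SMPD1, the acid sphingomyelinase, is known to be released when lysosomes fuse with a wounded plasma membrane. It fell from 5254 and 4844 in untreated cells to 3708 and 3755 on day 0 of SDS (−0.44 ± 0.07, 5.3e-06) and to 2500 and 2848 on day 0 of KCl (−0.92 ± 0.07, 2.9e-12). On day 0 of DXR it had risen to 7116 and 7170 (0.50 ± 0.07, 1.2e-06), and on day 16 of SDS and DXR it was at 7591 and 7301 and at 7642 and 7723. PSAP, the precursor of the saposins that present sphingolipids to their hydrolases, was called higher on all 8 days of SDS and of DXR. Its count was 28402 and 26600 in untreated cells, 47798 and 48095 on day 16 of DXR (0.80 ± 0.07, adjusted p = 9.1e-09) and 49085 and 44617 in RS (0.77 ± 0.07, 1.6e-08). The mean of 49989 on day 16 of SDS is a group level, as those 2 libraries were not separated (0.86 ± 0.07, 5.4e-09).

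PPT1, the palmitoyl-protein thioesterase that removes fatty acids from proteins, at chr1:40071461-40097252, was called lower in 19 of 25 comparisons and higher in 2. From 1745 and 1665 in untreated cells it rose to 3360 and 3468 on day 0 of KCl (1.00 ± 0.07, adjusted p = 5.7e-13) and fell to 1021 and 944 on day 0 of SDS (−0.80 ± 0.07, 9.8e-11). Day 0 of DXR was close to untreated cells, at 1619 and 1647 (−0.06 ± 0.07, adjusted p = 0.54). Late values were 1088 and 1168 on day 16 of SDS, 834 and 888 on day 16 of DXR and 1034 and 921 in RS, all below the untreated libraries (−0.60 ± 0.07, −0.99 ± 0.07 and −0.80 ± 0.07, adjusted p = 1.1e-07, 3.1e-12 and 1.6e-10). On day 16 of KCl, at 1403 and 1439, it was called at −0.26 (adjusted p = 0.013), a call lost without any 1 of the 4 libraries except untreated library b.

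NPC1, at chr18:23506184-23586506, moves cholesterol out of the lysosome together with NPC2, and had the largest rise of any member on day 0 of SDS. It was at 1013 and 1490 in untreated cells, 5018 and 5162 on day 0 of SDS (2.05 ± 0.31, adjusted p = 1.3e-06) and 2898 and 2858 on day 0 of KCl (1.23 ± 0.31, 0.001). Day 1 of SDS was at 2899 and 2864 (1.23 ± 0.31, 0.0027), and by day 3 its libraries, at 766 and 1048, overlapped the untreated range. DXR gave 1949 and 1661 on day 0 (0.55 ± 0.31, adjusted p = 0.16). In RS the libraries were at 2326 and 684, either side of the untreated ones, and the difference of 0.04 ± 0.31 became −0.84 without RS library a and 0.92 without RS library b (adjusted p = 0.0083 and 0.0045). NPC2 behaved unlike NPC1: it was −0.02 on day 0 of SDS (adjusted p = 0.81) and 1.03 ± 0.06 in RS (6.9e-14), and was called higher in 20 of 25 comparisons. LIPA, the acid lipase that frees cholesterol and fatty acids, was higher on day 0 of SDS (0.68 ± 0.09, 6.0e-08) and lower on day 0 of KCl (−0.53 ± 0.09, 3.3e-06).

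**Figure D4:**
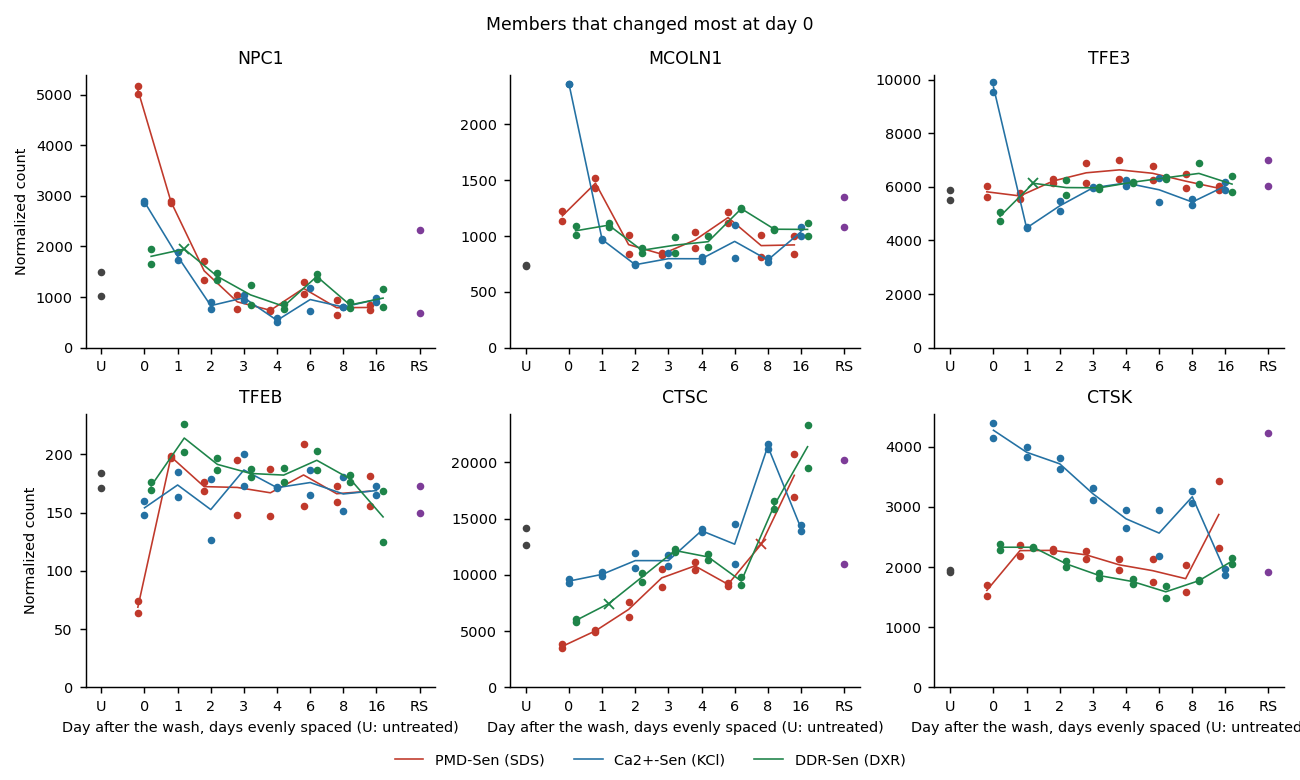
Normalized count of NPC1, MCOLN1, TFE3, TFEB, CTSC and CTSK in untreated cells (U), on each day of SDS, KCl and DXR, and in RS. Circles are single libraries, crosses group levels where libraries were not separated, lines join group means, and days are evenly spaced. NPC1 is highest on day 0 of SDS, MCOLN1, TFE3 and CTSK on day 0 of KCl, and TFEB and CTSC are lowest on day 0 of SDS.

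Of the membrane proteins, the channel moved most. MCOLN1, at chr19:7522624-7534009, encodes TRPML1, which releases calcium from the lysosome. It was at 729 and 741 in untreated cells and 2359 and 2365 on day 0 of KCl, a difference of 1.68 ± 0.12 (adjusted p = 3.2e-13), and back at 967 and 971 on day 1. SDS gave 1225 and 1138 on day 0 (0.68 ± 0.12, 1.5e-05) and 1521 and 1426 on day 1 (1.00 ± 0.12, 2.3e-07), and DXR gave 1088 and 1006 on day 0 (0.51 ± 0.12, 0.001). Along with CTSD and PSAP it was 1 of 3 members called higher on day 0 of all 3 inducers. How many of all tested genes had these 3 calls together was not counted. On day 0 of SDS, KCl and DXR singly, 26.4%, 27.1% and 18.8% of all genes were higher. The promoter of MCOLN1 carries the 8 letters TCACGTGA in 2 places. The calls of CTSD and PSAP on day 0 of KCl (0.20 and 0.25) were lost without untreated library b (0.17 and 0.20, adjusted p = 0.097 and 0.072) or KCl library b (0.14 and 0.21, adjusted p = 0.19 and 0.062). In RS MCOLN1 was at 1349 and 1082 (0.72 ± 0.12, 1.1e-05). SCARB2, the receptor that carries β-glucocerebrosidase to the lysosome, was at 8575 and 9421 in untreated cells, 6796 and 7146 on day 0 of SDS (−0.37 ± 0.06, 1.2e-05), 7131 and 7515 on day 0 of KCl (−0.30 ± 0.06, 0.00019) and 11668 and 13552 in RS (0.48 ± 0.06, 2.0e-07). LAMP2 had the narrowest range of all tested members, with group means between 5469 and 6815, or 0.32 on the log2 scale. Its untreated libraries were at 6035 and 6061 and its RS libraries at 6383 and 7106, a call of 0.16 (adjusted p = 0.027) that was lost without RS library b (0.08, adjusted p = 0.38) or either untreated library. LAMP1, the other main membrane glycoprotein, was called higher in 16 of 25 comparisons, by 0.51 at most, and CD63, a tetraspanin of late endosomes, in 15, by 0.56 at most. Both were called on all 8 days of DXR. LAMP1 was not separated into libraries in 3 groups and CD63 in 12. The call of CD63 on day 0 of DXR (0.22, adjusted p = 0.034) was lost in each of the 4 fits without 1 library (adjusted p = 0.058 to 0.17).

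Of the proton pump genes, ATP6AP1, an accessory subunit, was at 4252 and 4035 in untreated cells, 6252 and 6739 on day 16 of DXR (0.65 ± 0.08, adjusted p = 2.0e-07) and 6914 and 6576 in RS (0.70 ± 0.08, 4.1e-08), with no overlap. It was called higher in 20 of 25 comparisons. ATP6V1H, a subunit of the cytosolic part, was at 1959 and 2162 in untreated cells and 2733 and 2491 in RS (0.34 ± 0.08, 0.00039), and at 1760 and 1755 on day 8 of KCl, its one fall (−0.23 ± 0.08, 0.016).

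The transcription factors changed at the mRNA level mainly on day 0. TFEB, at chr6:41683978-41736223, dropped from 171 and 184 normalized counts in untreated cells to 63.7 and 74.0 on day 0 of SDS (−1.36 ± 0.16, adjusted p = 1.7e-08) and was at 197 and 199 on day 1. No other comparison called TFEB, and the other differences lay between −0.29 and 0.27. Day 16 of DXR, at −0.29 (adjusted p = 0.14), was called without DXR library b (−0.51, adjusted p = 0.032). TFE3, at chrX:49028726-49043357, rose from 5493 and 5887 to 9532 and 9912 on day 0 of KCl (0.77 ± 0.08, 8.0e-10) and fell to 4484 and 4450 on day 1 of KCl. The SDS libraries on day 0, at 5613 and 6014, overlapped the untreated ones (0.03 ± 0.08, adjusted p = 0.76). DXR gave 5064 and 4738 on day 0, called at −0.22 (adjusted p = 0.028) but not without untreated library b or DXR library b (−0.17 in both, adjusted p = 0.20 and 0.21). In RS TFE3 was at 6013 and 6992, called at 0.19 (adjusted p = 0.047) but not without RS library b (0.08, adjusted p = 0.51) or untreated library a (0.14, adjusted p = 0.26).

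The members with CACGTG in the promoter and those without can be set side by side, with no test. Of the 8 tested members with the letters, 7 were higher on day 0 of DXR and 0 lower, and of the 20 without, 11 and 2, where 18.8% of all genes were higher and 21.6% lower. On day 0 of KCl the counts were 3 higher and 1 lower with the letters and 4 and 8 without (27.1% and 32.1% of all genes), and on day 0 of SDS 3 and 0 against 7 and 6 (26.4% and 29.3%). On day 16 they were 7 and 0 against 12 and 1 with SDS (20.9% and 22.9%), 4 and 0 against 7 and 1 with KCl (8.43% and 8.06%) and 7 and 0 against 12 and 2 with DXR (22.1% and 24.8%), and in RS 6 and 0 against 12 and 3 (23.3% and 24.0%).

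Direct contrasts between inducers on the same day leave the untreated libraries out. On day 0, SDS cells had 4 members above and 22 below DXR cells (28.1% and 28.6% of all genes), KCl cells had 6 above and 20 below DXR cells (29.4% and 31.4%), and SDS cells had 17 above and 10 below KCl cells (32.6% and 31.2%). The widest gap was that of FUCA1, with a log2 difference of −4.32 ± 0.19 between KCl and DXR cells (95% interval −4.7 to −3.93, adjusted p = 2.5e-18). PPT1 was lower after SDS than after KCl (−1.80 ± 0.07, adjusted p = 2.7e-19), and MCOLN1, TFE3, TFEB, CTSK and CTSC were lower after SDS too, at −1.0 ± 0.12, −0.74 ± 0.08, −1.16 ± 0.16, −1.41 ± 0.19 and −1.38 ± 0.16. NPC1 was higher after SDS than after DXR (1.5 ± 0.31, adjusted p = 0.00011). After SDS and KCl, LIPA and CTSL stood 1.21 ± 0.09 and 1.13 ± 0.08 apart, higher with SDS. GALNS, ATP6V1H and CTSS were not called in any of the 3 contrasts. Their 95% intervals lay between −0.34 and 0.14, apart from those of CTSS, between −1.22 and 0.74. Of the 17 and 10 members apart between SDS and KCl, 14 and 8 were called in all 4 fits without 1 library, of the 4 and 22 between SDS and DXR 3 and 15, and of the 6 and 20 between KCl and DXR 5 and 18.

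**Figure D5:**
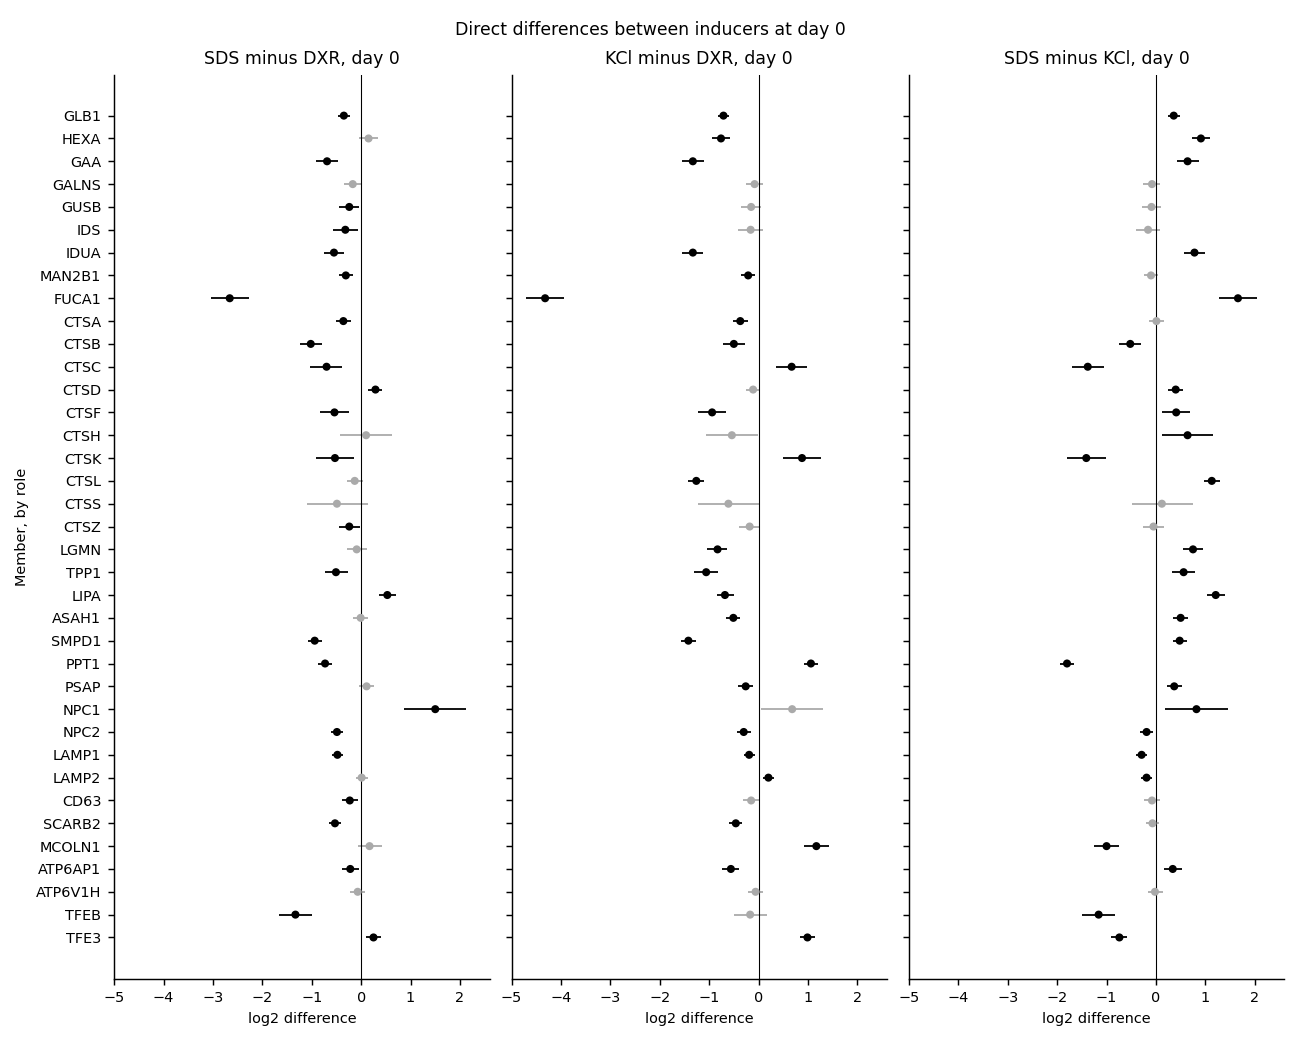
Log2 differences of the 37 tested members between inducers on day 0, with 95% intervals as bars, for SDS minus DXR, KCl minus DXR and SDS minus KCl. Black points have an adjusted p under 0.05 and gray ones do not. Most black points of the first 2 panels lie below 0, with FUCA1 farthest to the left at −4.32 in KCl minus DXR.

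The counts of members that differed between the inducers changed from day to day. SDS and KCl cells differed in 21 members on day 1 (15 higher and 6 lower in SDS, against 11.0% and 8.91% of all genes), in 6 on day 2 (2 and 4, against 7.15% and 4.62%) and in 0 on days 3, 4 and 6, by limma with an adjusted p under 0.05, when 0.0448%, 0.0832% and 0.134% of all genes were called higher and 0.141%, 0.0384% and 0.0832% lower. At an unadjusted p under 0.05, 3, 7 and 3 members were higher and 5, 2 and 3 lower in SDS on those 3 days. On day 8 they differed in 14, with 4 higher and 10 lower in SDS (11.3% and 8.27%). Members lower in SDS than in DXR cells numbered 18, 16, 10, 2, 1 and 2 on days 1, 2, 3, 4, 6 and 8, against 17.0%, 9.14%, 3.22%, 0.397%, 0.269% and 0.352% of all genes, and those higher 4, 3, 0, 0, 0 and 0, against 18.6%, 13.7%, 4.17%, 0.371%, 0.992% and 1.48%. KCl cells were below DXR cells in 22, 16, 12, 10, 2 and 10 members on the same days (13.0%, 4.94%, 2.29%, 1.15%, 1.68% and 12.6% of all genes) and above them in 4, 4, 1, 0, 2 and 6 (12.4%, 5.46%, 2.55%, 1.60%, 2.83% and 9.77%).

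By day 16, KCl cells lay below both others. They had 20 members below DXR cells and 1 above (11.6% and 16.1% of all genes), and SDS cells had 17 above and 1 below KCl cells (9.87% and 13.3%). CTSF differed by −1.47 ± 0.14 between KCl and DXR and by 1.08 ± 0.14 between SDS and KCl (adjusted p = 4.0e-09 and 3.5e-06). GLB1 was 0.25 ± 0.06 higher in SDS than in KCl cells (0.0018), and PPT1 was the one member higher in KCl than in both SDS and DXR cells. SDS and DXR cells differed in 6 members on day 16, with GUSB and PPT1 higher and FUCA1, LGMN, ASAH1 and ATP6AP1 lower in SDS (3.28% and 1.89% of all genes). Of these 6, only the difference of FUCA1 (−1.27 ± 0.19, adjusted p = 0.00023) was called in all 4 fits without 1 library. Without SDS library b, PPT1 was at 0.34 (adjusted p = 0.072), LGMN at −0.36 (0.24), ASAH1 at −0.21 (0.37), GUSB at 0.22 (0.60) and ATP6AP1 at −0.14 (0.73). The interval of the difference of GLB1 between SDS and DXR was −0.18 to 0.06. Against RS, DXR cells on day 16 had 2 members higher, MAN2B1 and CTSZ, and 0 lower (1.22% and 2.21% of all genes), or 3 higher and 5 lower by limma at an unadjusted p under 0.05. Neither of the 2 was called without DXR library b (0.32 and 0.47, adjusted p = 0.055 for both). SDS cells had 6 above and 8 below RS (9.05% and 10.7%), among them FUCA1 at −1.24 ± 0.19, LGMN at −0.64 ± 0.10 and ASAH1 at −0.42 ± 0.07. KCl cells had 2 above, CTSZ and PPT1, and 18 below (15.1% and 13.9%), with CTSF at −1.64 ± 0.14.

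Within an inducer, 23 members rose and 4 fell between day 0 and day 16 of SDS (30.3% and 29.8% of all genes), 17 rose and 5 fell with KCl (31.5% and 27.0%), and 13 rose and 8 fell with DXR (20.0% and 21.5%). NPC1 fell with all 3 (−2.68 ± 0.31, −1.60 ± 0.31 and −0.90 ± 0.31), the last lost without DXR library a of day 0 (−0.79, adjusted p = 0.12) or library b of day 16 (−0.63, adjusted p = 0.21). GLB1, CTSC, LGMN, ASAH1, NPC2 and SCARB2 were called higher on day 16 with all 3. These 3 calls together were not counted over all tested genes, so the list shows nothing particular to the members. The call of SCARB2 with DXR (0.19) was lost without library b of day 16 (0.13, adjusted p = 0.19) or of day 0 (0.16, adjusted p = 0.13). ASAH1 gained 0.71 ± 0.07 with SDS, 1.10 ± 0.07 with KCl and 1.00 ± 0.07 with DXR, and GLB1 gained 0.48 ± 0.06, 0.59 ± 0.06 and 0.20 ± 0.06, the last lost without DXR library b of day 16 (0.15, adjusted p = 0.098). SMPD1 gained 1.00 ± 0.07 with SDS and 1.21 ± 0.07 with KCl. With KCl, day 8 stood above day 16 for several members: CTSC was at 21182 and 21671 on day 8 and 14448 and 13870 on day 16, and PSAP at 46699.5 and 49182 and then 32608 and 32619.6. This fall after day 8 is seen in both libraries and was not tested.

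Other lysosomal genes, from lists of the same pathway, were counted in the same way and are to be read against the shares of all genes called higher and lower. These were 23.3% and 24.0% in RS, 26.4% and 29.3% on day 0 of SDS, 27.1% and 32.1% on day 0 of KCl, 18.8% and 21.6% on day 0 of DXR, 20.9% and 22.9% on day 16 of SDS, 8.43% and 8.06% on day 16 of KCl and 22.1% and 24.8% on day 16 of DXR. Of 29 further hydrolases and activators, 19 were higher and 2 lower in RS, 20 and 1 on day 16 of SDS, 15 and 1 on day 16 of KCl and 19 and 2 on day 16 of DXR. On day 0, 7 were higher and 10 lower with SDS, 3 and 19 with KCl, and 18 and 0 with DXR. HYAL2, a hyaluronidase, was lowest on day 0 of KCl (−2.04 ± 0.09, adjusted p = 1.4e-17). Of 24 further membrane proteins and transporters, 16 were higher and 1 lower in RS, 14 and 6 on day 0 of SDS, 8 and 11 on day 0 of KCl, 15 and 1 on day 0 of DXR, and 13 and 1, 10 and 0, and 12 and 1 on day 16 of SDS, KCl and DXR. Among them MCOLN2, a channel related to MCOLN1, rose from 38.9 to 379 normalized counts on day 0 of KCl (3.27 ± 0.26, 2.1e-12), and GPNMB, a melanosomal and lysosomal glycoprotein, rose from 456 to 2004 in RS (2.07 ± 0.21, 1.2e-09). The 17 further V-ATPase subunits had 11 higher and 2 lower in RS, 8 and 4 on day 0 of SDS, 10 and 6 on day 0 of KCl, 9 and 1 on day 0 of DXR, and 7 and 1, 5 and 0, and 8 and 1 on day 16 of SDS, KCl and DXR. Of 17 genes of mannose 6-phosphate tagging and sorting, 7 were higher and 2 lower in RS, 3 and 7 on day 0 of SDS, 5 and 8 on day 0 of KCl, 6 and 4 on day 0 of DXR, and 7 and 1, 7 and 0, and 7 and 2 on day 16 of SDS, KCl and DXR. SORT1, a sorting receptor, was lowest on day 0 of SDS (−1.52 ± 0.12, 2.3e-12). Of 19 further genes of the TFEB family and of mTORC1 control at the lysosome, 6 were higher and 1 lower in RS, 8 and 4 on day 0 of SDS, 9 and 6 on day 0 of KCl, 7 and 2 on day 0 of DXR, and 7 and 2, 5 and 0, and 5 and 2 on day 16 of SDS, KCl and DXR. Of 9 cystatins and galectins, 3 were higher and 1 lower in RS, 1 and 3 on day 0 of SDS and of KCl, 5 and 0 on day 0 of DXR, and 3 and 0, 1 and 0, and 4 and 1 on day 16 of SDS, KCl and DXR. TFEC and MITF are related to TFEB and TFE3. TFEC had few reads, with a mean of 4.7 in untreated cells and 27.6 in RS (2.48 ± 0.45). It passed the filter at a mean of 10 only through groups where it was high. Its differences from untreated cells are therefore a description and not a test, although the counts of its list include it. On day 0 of SDS, KCl and DXR it was at 29.5, 42.1 and 30.8 (2.59, 3.1 and 2.6, each ± 0.45). MITF was higher in RS (1.26 ± 0.12, 8.4e-10) and lower on day 0 of SDS (−0.83 ± 0.12, 1.1e-06).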

How the data were processed

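The mRNA-seq of 52 WI-38 libraries was analysed from tables that the authors deposited, each a DESeq2 comparison of 1 group with the untreated group. Per the labels, they were made from reads trimmed with Trim Galore, aligned with HISAT2 to GRCh38 and counted with HTSeq or featureCounts. The versions are not given in the sources used here. The fold change, error and p columns hold the authors' comparisons and were not used. The deposited signal is the mean normalized count of 4 libraries. The tables are 25 distinct ones, and 27 repeat one. Whole read counts were recovered by solving each mean for whole numbers, which gave counts for 46273 of 46275 genes above 0. The solution was tested on simulated tables. Single libraries were separated in 98.89% of the gene groups tested, and the rest entered as group means with fewer degrees of freedom. They were named a and b from the larger to the smaller and not by the labels' replicate numbers. Some pairs counted as separated were picked among several solutions because their libraries were of similar level. The effect of this choice on the spread was not tested.

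Genes with a mean of at least 10 were fitted in limma 3.58.1 (R 4.3.3) on log2(normalized count + 0.5) over 26 groups, with a trend and no covariate. Because the unit was the authors' mean signal, no count model was used. In simulated data for day 16 of SDS, 38.8%, 98.8% and 100% of genes changed by 0.5, 1 and 2 on the log2 scale were called among 15627 genes. All groups were simulated with the same dispersion, unlike the real libraries, whose spread differed between groups. The simulation therefore does not show how the fit behaves where the spread is unequal. Changed genes were placed only at means above 100, where 7 of 157 simulated calls were unchanged genes, so the share of true calls below 100 was not tested. A further 19 unchanged genes below 100 were called. FUCA1, CTSH and CTSS had untreated means of 45.2, 56.7 and 63.8.

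The authors describe the 2 libraries of a group as independent samples and do not say in the sources used here whether these were separate cultures. The p-values rest on the spread between these samples, estimated once per gene over all 26 groups, and not on that of the 2 groups compared. The 2 libraries of a group differed by more than sampling noise, and to unequal degrees. Their median chi-square over the value of sampling alone was 2.14 on day 16 of KCl, 3.08 in untreated cells and 13.48 in RS. The p-values of RS therefore do not measure the spread of RS itself. The members, roles and pathway lists were chosen with earlier results of these data known. Single libraries are given in the groups described, not in every group, for GLB1, TFEB and TFE3 and for members picked in each role. Those picked were the called members with the largest rise and fall in RS and on days 0 and 16. The member with the smallest range was added. Not every comparison behind a pick is shown by library, and those of CTSH and GUSB on day 0 of SDS are not. At most 2 genes of a pathway list are named, those with the largest called change. Promoters came from RefSeq (GRCh38.p14), gene positions from the same build. Plots were made with matplotlib 3.10.9, and tables with pandas 2.3.3, SciPy 1.17.1 and NumPy 2.4.6 in Python 3.11.15. Alternatives were another pseudocount, filters, scaling, weights, a size limit, fits of 2 groups and leaving out each library.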

Additional observations from a re-analysis of the deposited data

Results flagged for a closer look

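On day 0 several members were called on opposite sides of the untreated level by 2 inducers, with a direct difference between the inducers that was itself called. Genes with the same calls were not counted over all tested genes, so these results show nothing particular to the members. In the direct contrasts of day 0, 28.1% to 32.6% of all genes were higher and 28.6% to 31.4% lower. All untreated comparisons share the same 2 libraries. Between SDS and DXR, the log2 difference was −1.02 for CTSB, −0.94 for SMPD1 and −0.53 for SCARB2, each lower with SDS. Between SDS and KCl it was 0.91 for HEXA, 0.78 for IDUA, 1.13 for CTSL, 0.75 for LGMN and 1.21 for LIPA, each higher with SDS, and −1.80 for PPT1, which was higher with KCl. Between KCl and DXR it was −0.71 for GLB1, −0.76 for HEXA, −1.33 for GAA, −1.33 for IDUA, −1.26 for CTSL, −0.83 for LGMN, −1.06 for TPP1, −1.42 for SMPD1 and −0.46 for SCARB2, each lower with KCl, and 0.99 for TFE3, which was higher with KCl. These 19 direct differences were called in each of the 4 fits without 1 library, but several calls against untreated cells were not. Without untreated library a, CTSB with SDS was at −0.31 (adjusted p = 0.054), LGMN with SDS at 0.20 (0.13), IDUA with KCl at −0.17 (0.26), TPP1 with KCl at −0.16 (0.30) and SCARB2 with DXR at 0.09 (0.39), and without untreated library b, LGMN with KCl was at −0.14 (0.29) and TFE3 with DXR at −0.17 (0.20). For these genes the direct difference holds in each of those fits and the opposite sides of the untreated level do not. With 2 libraries a group, no single library could be tested for standing apart from its group.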

How the results depend on the processing

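Over the 25 comparisons with untreated cells there were 425 higher and 68 lower calls, and 224 to 438 and 24 to 72 under the alternatives. A pseudocount of 5, a filter at a mean of 100 and scaling by totals moved none of the 37 counts of called members by over 1.5 times. Requiring a log2 difference of at least 0.5 left 18 members called in RS, 12, 3, 1, 3, 13 and 11 on days 0, 2, 3, 4, 6 and 8 of SDS, 9, 3, 2, 2, 4, 10, 15 and 4 on the 8 days of KCl in order, and 12, 11, 8, 12 and 15 on days 0, 2, 3, 4 and 6 of DXR. It left 14 between SDS and DXR on day 0, 1, 9 and 10 on day 16 for SDS with DXR, SDS with KCl and KCl with DXR, 17 and 8 between days 16 and 0 of SDS and DXR, and 4, 13 and 1 for day 16 of SDS, KCl and DXR with RS. Fitting only the 2 groups compared left 16 in RS, 4 and 13 on days 3 and 6 of SDS, 2 and 8 on days 2 and 6 of KCl, 0 for SDS with DXR, 4 for SDS with KCl on day 16, and 0, 6 and 0 for SDS, KCl and DXR on day 16 with RS, with few degrees of freedom. No filter on low counts gave 7 and 3 on days 1 and 2 of KCl, and voom weights gave 7 and 3 there. Leaving out 1 library at a time gave 4 to 7, 7 to 10 and 12 to 18 on days 2, 3 and 4 of SDS, 5 to 9, 3 to 5, 6 to 9 and 8 to 12 on days 1 to 4 of KCl, 2 to 7 for SDS with DXR on day 16, 13 to 20 between days 16 and 0 of DXR, and 7 to 16 and 0 to 4 for SDS and DXR on day 16 with RS. Without RS library a, CTSK in RS went from 0.55 to −0.01 and NPC1 from 0.04 to −0.84, and without library b they were at 1.12 and 0.92. Causes were not tested. A fit that leaves a group with 1 library assumes that it varies like the other groups. No paired analysis was possible because the recovered libraries cannot be tied to the replicate numbers of the labels.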
